A study of Mus musculus with 30 samples.

Results

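Follicular helper T cells sorted through a CXCR5hi gate (TFH) were compared with TH2 cells by QuantSeq, a 3' tag method that counts the ends of polyadenylated transcripts. The comparison took every QuantSeq library whose labels give the TFH CXCR5hi gate (n = 3) or the TH2 group (n = 4). These are 7 of the 30 libraries of the series. All 14383 genes with enough counts over the 22 QuantSeq libraries of the series were tested. All cells came from the spleens of C57BL/6 mice aged 8 weeks and carried OTII Tg, a transgenic T cell receptor. TFH cells were from OTII Tg mice and were sorted as CD4+CD45.2+CXCR5hi PD1+. TH2 cells were from mice that also carried IL-4BacTg, labelled OTII Tg IL-4BacTg x OTII Tg, and were sorted as CD4+hCD2+, by human CD2. The labels do not say what drives human CD2, how the mice were immunized, or whether a library held 1 animal or a pool. Cell type, transgene and sort gate thus differ together between the groups and cannot be told apart. The labels name no animal or culture, so p-values measure no more than how far these libraries lie apart, and that spread may be technical.

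TFH cells are CD4 T cells that move into B cell follicles, where they select and sustain germinal centre B cells. The repressor Bcl6 directs them, the chemokine receptor Cxcr5 places them in the follicle, and they help B cells through CD40 ligand and the cytokine IL-21. TH2 cells are effector cells directed by Gata3 that leave the lymphoid tissue and secrete IL-4, IL-5 and IL-13 against worms and in allergy.

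The 7 libraries held 1.85 to 4.03 M counts, with 7456 to 9697 genes at 10 counts or more. Replicates of these groups differed far beyond counting noise: over 9 pairs chi-square per df ran from 38.4 to 69.4, and 22.9 to 30.6% of abundant genes differed more than 2-fold. Levels below are CPM, counts per M counts after scaling of the library sizes, M being 10 to the sixth power. TFH replicates 1 to 3 and TH2 replicates 1 and 2 held Xist (216 to 485 CPM). TH2 replicates 3 and 4 held the Y-linked Ddx3y (100.5 and 28.7 CPM). Ddx3y passed as lower in TFH cells (adjusted p 0.00171), lost without TH2 replicates 3 and 4 together, at 0.622. Because the libraries are bulk, fewer cells of a type and less RNA per cell cannot be told apart in any value below.

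In edgeR's quasi-likelihood test, 505 genes passed at an adjusted p under 0.05, 295 of them higher and 210 lower in TFH cells. These are 3.51, 2.05 and 1.46% of the genes tested. Counts of list members below stand beside those shares, 2.05% higher and 1.46% lower. The filter on counts ran over all 22 QuantSeq libraries, and on the 7 libraries alone it kept 9569 genes. The shares and the median of all genes tested thus include genes with few or no counts in these 7 libraries. The groups did not overlap in 469 of the 505, against 12.2% of all genes tested. With each of the 7 libraries left out in turn, 245 genes kept their call every time, 161 higher and 84 lower. Leaving out TFH replicate 2 moved the counts most, to 212 higher and 124 lower, with 318 genes shared with the full comparison. DESeq2 called 472 genes higher and 491 lower, 502 of them shared. Below, a call is given as lost where the adjusted p rose above 0.05 without 1 library, without a pair of TH2 replicates, in another scaling or filter, or in a fit to the 7 libraries alone. Of the 55 genes named that did not pass, 19 passed under at least 1 of these alternatives, with DESeq2 or without robust settings, and those settings are given for genes with 2 or more of them. For genes that did not pass, levels are given as means ± SD over the 3 TFH libraries against the 4 TH2 libraries.

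**Figure D1:**
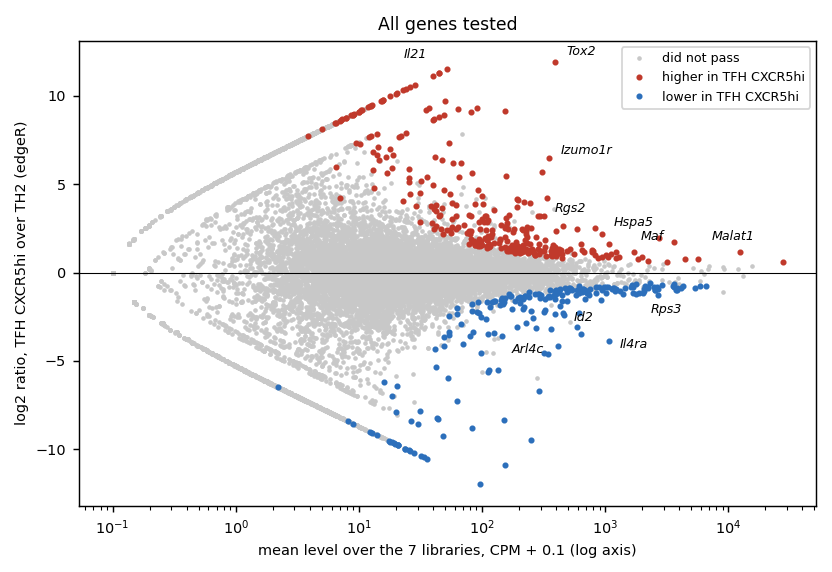
Each point is 1 of the 14383 genes tested, by its mean level over the 7 libraries (CPM + 0.1, log axis) and its fitted log2 ratio of TFH CXCR5hi over TH2. The 295 genes higher in TFH cells (red) and the 210 lower (blue) include Tox2 and Il21 at the top and Il4ra and Id2 below 0; the straight outer lines are genes with no count in 1 group, whose fitted ratio depends on the prior count.

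Bcl6, Cxcr5 and Pdcd1 were higher in TFH libraries, and Icos overlapped. Bcl6 stood at 142, 93.4 and 126 CPM in TFH libraries and at 0.392, 13.3, 2.05 and 5.96 CPM in TH2 libraries. Those groups did not overlap (adjusted p 2.38e-07). Cxcr5 stood at 81.8, 134 and 96.5 CPM, and Pdcd1, the gene of PD1, at 223, 156 and 186 CPM, against 0 and 3 counts in all TH2 libraries together. Both belong to the sort gate, so their difference is a check of it and no further result. Icos, the costimulatory receptor of TFH cells, overlapped between the groups (262, 308 and 352 against 364, 167, 174 and 128 CPM, adjusted p 0.348). Cd4 was 1.29 ± 0.22 on the log2 scale higher in TFH cells (adjusted p 8.4e-06), at 1194, 1075 and 1295 against 539.6, 503, 542 and 360.5 CPM, and the T cell receptor complex gene Cd3e was found in all 7 libraries (344, 177 and 362 against 135, 162, 260.2 and 230.1 CPM).

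The TH2 libraries held few or no cytokine transcripts of TH2 cells. Il5 had no count in any of the 7 libraries, Il1rl1, the IL-33 receptor of TH2 cells, had 2 counts over the 4 TH2 libraries, and Il13 had 12, beside 47 in TFH replicate 1. Il4 was counted in TH2 replicate 3 alone (40 counts, 13.7 CPM) and in TFH replicates 2 and 3 (7.05 and 19.3 CPM). Il4 and Il13 overlapped between the groups, and none of these 4 genes passed the test (adjusted p 1, 0.684, 0.679 and 0.856). A pair of receptors of resting T cells, chosen after their values were seen, was found in the same TH2 libraries. Ccr7, the chemokine receptor of lymphoid tissue, stood at 219, 159, 254 and 199 CPM and Il7r, the IL-7 receptor of resting and memory T cells, at 372, 300.5, 757 and 508 CPM. No TFH library reached the lowest TH2 library in either gene, and neither passed in the robust edgeR fit to all groups (adjusted p 0.109 and 0.0573). Ccr7 passed with DESeq2, in edgeR without robust settings, in a fit to the 7 libraries alone, and without TH2 replicates 1 and 2 together, at 4.94e-13 to 0.00183. Il7r passed with DESeq2, in edgeR without robust settings, and without TFH replicate 3, or TH2 replicates 1 and 2 together, at 7.87e-34 to 0.00745. Tcf7, which naive cells share, was higher in TFH libraries, as given below. In the RNA-seq libraries labelled TH2, from IL-4BacTg mice whose labels do not give OTII Tg, Il1rl1 stood at 337 and 308 CPM and Il13 at 73.1 and 69.2 CPM.

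Gata3, Il4ra and Ecm1 were lower in TFH cells. Gata3, the master factor of TH2 cells, stood at 239, 328, 218 and 266 CPM in TH2 libraries against 57.4, 51.0 and 148 in TFH libraries. Every TH2 library was above every TFH library, and the difference was -1.62 ± 0.36 log2 (adjusted p 0.00157; lost without TFH replicate 2, at 0.0553). Il4ra, the IL-4 receptor chain, stood at 2272, 1750, 1488 and 1632 CPM in TH2 libraries and 199, 54.8 and 116 in TFH libraries, -3.86 ± 0.49 log2 (adjusted p 0.000124). Ecm1, a secreted protein that TH2 cells use to leave lymph nodes, stood at 189, 305, 38.0 and 42.2 CPM against 3 counts in all TFH libraries (adjusted p 0.012; lost without TFH replicate 1 or 2, at 0.0846 and 0.103). These were the 3 of 18 tested members of the TH2 list that passed, all lower in TFH cells. The median log2 ratio of that list was -0.20, and 0.00 with genes empty in 1 group at their bound, against 0.00 for all genes tested. Crlf2, a receptor chain for TSLP, and Rora, a factor of type 2 cells, were the members of highest level that did not pass (182 ± 76.7 against 243 ± 55.0 CPM, then 74.0 ± 25.1 against 47.9 ± 43.1 CPM; adjusted p 0.615 and 0.733).

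**Figure D2:**
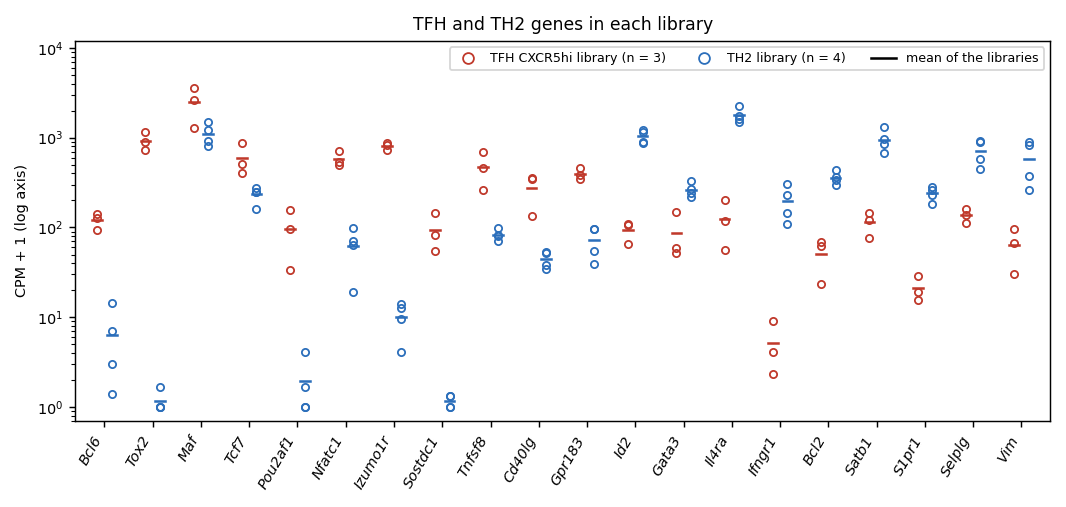
Each circle is 1 library (red, TFH CXCR5hi, n = 3; blue, TH2, n = 4), bars are group means, and the axis is CPM + 1 on a log scale. Among the genes shown that were higher in TFH cells, Maf is the one in which a TFH library (1285 CPM) lies below a TH2 library (1496 CPM).

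Of the TFH transcription factors, 8 of 19 tested passed, all higher in TFH cells (42.1% against 2.05% of all genes). The median was 1.35 over the 19. Tox2, a nuclear factor that keeps chromatin open at TFH genes, stood at 885, 726 and 1141 CPM in TFH libraries and had 2 counts in TH2 libraries, both in replicate 3. Cebpa, a factor of the granulocyte lineage, stood at 89.1, 88.0 and 102 CPM and had no count in TH2 libraries, a difference of at least 76.7-fold. Nfatc1, a calcium-regulated factor, stood at 494, 707 and 532 CPM against 18.0, 63.4, 69.1 and 96.9. The groups did not overlap (3.23 ± 0.57 log2, adjusted p 0.00334). Pou2af1, a coactivator of octamer-binding factors that also marks B cells, stood at 156, 95.7 and 32.8 CPM in TFH libraries and at 0, 3.07, 0.684 and 0 CPM in TH2 libraries (adjusted p 0.000124). Maf, which drives Il21 transcription, was 1.16 ± 0.23 log2 higher (adjusted p 0.00109), although TFH replicate 3 lay within the TH2 range. Tcf7, the factor TCF1 shared by TFH, naive and memory cells, stood at 507, 408 and 864 CPM against 249, 275, 246 and 159. The groups of Tcf7 did not overlap (1.35 ± 0.28 log2, adjusted p 0.000419); the call was lost without TFH replicate 3, at 0.0596. Sh2d1a, the SLAM adaptor SAP needed for contact with B cells, was 3.29 ± 0.80 log2 higher (adjusted p 0.00414). Tox, the relative of Tox2, did not pass: TFH libraries held 205, 273 and 206 CPM, TH2 libraries 0, 36.8, 0.684 and 11.9, so the groups did not overlap (adjusted p 0.0937). Tox passed with DESeq2, in edgeR without robust settings, and without TH2 replicate 2, or TH2 replicates 1 and 2 together, at 5.01e-11 to 0.0252. The other members of highest level that did not pass were Pou2f2, an octamer-binding factor (193 ± 63.4 against 86.9 ± 40.0 CPM), Bhlhe40, a repressor of effector cells (114 ± 22.1 against 137 ± 34.3 CPM), and Id3, an inhibitor of E proteins (106 ± 15.4 against 128 ± 121 CPM; adjusted p 0.0566, 0.873 and 0.937). Pou2f2 passed with DESeq2, and without TFH replicate 2, or TH2 replicate 1 or 3, at 0.0202 to 0.0486.

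The ligands and receptors of B cell help had the highest share of members higher among the 34 lists, 11 of 23 (47.8% against 2.05% of all genes), with a median of 2.52 and none lower. The cytokine Il21 stood at 112, 180.0 and 74.7 CPM and was at 0 in all TH2 libraries, at least 101-fold higher in TFH cells. Cd40lg, the ligand that licenses B cells, stood at 348, 352 and 132 CPM against 37.3, 51.8, 33.2 and 51.4. The lowest TFH library was above the highest TH2 library (2.68 ± 0.39 log2, adjusted p 8.18e-08). Tnfsf8, the CD30 ligand, stood at 696, 458 and 258 CPM against 81.6, 69.8, 80.3 and 97.4 (2.52 ± 0.32 log2, adjusted p 6.96e-09). Izumo1r, the folate receptor 4 of TFH and regulatory cells, was even across TFH libraries at 832, 736 and 862 CPM and stood at 11.8, 8.52, 3.08 and 13.0 in TH2 libraries (6.49 ± 0.64 log2, adjusted p 1.42e-05). Sostdc1, a secreted antagonist of BMP and Wnt signals made by TFH cells, stood at 143, 80.6 and 54.4 CPM against 2 counts (adjusted p 5.59e-15). Angptl2, another secreted protein, stood at 96.7, 167 and 48.6 CPM against 2 counts (adjusted p 4.56e-08). Fyn, the kinase that acts with SAP, stood at 856, 668 and 688 CPM against 136, 77.3, 222 and 129.9 (2.38 ± 0.30 log2, adjusted p 5.85e-10). Slamf6, a SLAM receptor, did not pass in edgeR (242, 166 and 277 against 3.92, 20.8, 53.3 and 53.0 CPM, adjusted p 0.103). It passed with DESeq2, in edgeR without robust settings, with no filter on low counts, in a fit to the 7 libraries alone, and without TH2 replicate 1, or either pair of TH2 replicates, at 8e-06 to 0.0217. Cd200, an inhibitory ligand (3.94 ± 0.98 log2), and Il6st, the gp130 chain of the IL-6 receptor (2.58 ± 0.71), passed less firmly (adjusted p 0.0295 and 0.0302). The call of Cd200 was lost without TFH replicate 1 or 2, or TH2 replicate 2, or in a fit to the 7 libraries alone, at 0.0624 to 0.0935, and that of Il6st was lost without TFH replicate 1, 2 or 3, TH2 replicate 2 or 4, or TH2 replicates 1 and 2 together, or in a fit to the 7 libraries alone, at 0.0569 to 0.164. Rgs10, a regulator of G protein signalling, and Il21r, the receptor of IL-21, did not pass (428 ± 71.6 against 81.1 ± 52.6 CPM, then 194 ± 31.9 against 230.2 ± 72.2 CPM; adjusted p 0.105 and 0.862). Rgs10 passed with DESeq2, in edgeR without robust settings, in a fit to the 7 libraries alone, and without TH2 replicates 1 and 2 together, at 1e-11 to 0.0313.

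Receptors for exit and adhesion differed in both directions. In the homing list 10 of 35 tested members were lower and 5 higher (median -0.49), against 1.46 and 2.05% of all genes. S1pr1, the sphingosine-1-phosphate receptor for exit into blood, stood at 18.1, 14.4 and 27.8 CPM in TFH libraries and 229, 283, 183 and 263 in TH2 libraries. The groups did not overlap, and the ratio was -3.57 ± 0.45 log2 (adjusted p 5.85e-10). S1pr4, another receptor of that lipid, stood at 22.6, 114 and 17.0 CPM against 425, 348, 473 and 519, with TFH replicate 2 above the other TFH libraries (-3.11 ± 0.55 log2, adjusted p 0.000887). Selplg, the selectin ligand PSGL-1, whose loss is a common sort criterion for TFH cells, stood at 161, 111 and 135 CPM against 890.2, 911, 579 and 451 (-2.38 ± 0.31 log2, adjusted p 9.81e-10). Integrin genes went both ways. Itgb3, the integrin beta chain of the vitronectin receptor, stood at 0, 9.74 and 4.76 CPM against 507, 629.6, 336 and 538 (adjusted p 0.00141), and Itgb7, the beta chain of gut homing integrins, was -1.41 ± 0.31 log2 (adjusted p 0.000836; lost without TH2 replicates 1 and 2 together, at 0.0797). Itgal, the LFA-1 alpha chain, was higher instead, at 616, 658 and 545 against 229, 192, 216 and 189.5 CPM (1.55 ± 0.26 log2, adjusted p 4.62e-06). Gpr183, the EBI2 receptor that guides cells to the follicle border, was also higher in TFH cells, at 346, 387 and 453 against 95.7, 96.4, 54.4 and 37.9 CPM. All 3 TFH libraries lay above all 4 TH2 libraries (2.47 ± 0.35 log2, adjusted p 4.01e-08). The cytoskeletal genes Vim (-3.21 ± 0.56 log2), Crip1 (-2.29 ± 0.35), Ahnak (-2.57 ± 0.41) and Anxa6 (-2.18 ± 0.32), which are high in migratory effector and memory cells, were all lower (adjusted p 0.00159, 3.69e-06, 8.44e-05 and 8.96e-08). Of these, Vim and Crip1 were uneven among TH2 libraries, with replicates 1 and 2 at 820 and 888 CPM of Vim and replicates 3 and 4 at 259 and 369.7. Cd44, the hyaluronan receptor (1.51 ± 0.33 log2), S100a11, a calcium-binding protein (2.04 ± 0.29), and Cxcr4, the receptor of CXCL12 (4.50 ± 1.24), were higher (adjusted p 0.00108, 3.29e-08 and 0.0177). The call of Cd44 was lost without TH2 replicates 1 and 2 together, at 0.143, and that of Cxcr4 was lost without TFH replicate 1 or 3, or TH2 replicates 3 and 4 together, or in a fit to the 7 libraries alone, at 0.0709 to 0.195. S100a6 and S100a10, of the same calcium-binding family, did not pass (383 ± 40.2 against 782 ± 569 CPM, then 246 ± 60.1 against 468 ± 180.2 CPM; adjusted p 0.259 and 0.0507). S100a6 passed in edgeR without robust settings, with no filter on low counts, and without TH2 replicate 3 or 4, or TH2 replicates 3 and 4 together, at 1.38e-06 to 0.0254. S100a10 passed with DESeq2, with RLE size factors, with no filter on low counts, in scaling without ribosomal protein genes, and without TH2 replicate 3 or 4, or TH2 replicates 3 and 4 together, at 0.00273 to 0.0463.

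Members of the TH1 and memory lists that passed were mostly lower in TFH cells. In the TH1 and cytotoxic list 7 of 24 members were lower and 0 higher (median -3.26, or -2.02 with empty genes at their bound). Id2, an inhibitor of E proteins that opposes TFH fate, stood at 109, 106 and 64.9 CPM against 1149, 1229, 902 and 873 (-3.48 ± 0.30 log2, adjusted p 1.76e-18). Runx3, a factor of TH1 and cytotoxic cells, stood at 55.3, 48.7 and 82.9 CPM against 209.8, 389, 279 and 168 (-2.07 ± 0.43 log2, adjusted p 0.000412). Cxcr6, a tissue homing receptor of effector cells, was -2.49 ± 0.50 log2 (adjusted p 0.000232). Ly6c2, an effector and memory surface protein whose counts may be split with Ly6c1, was at 0 in TFH libraries (adjusted p 0.0028). It stood at 106, 1.7, 37.6 and 35.2 CPM in TH2 libraries. By the TH2 mean it was at least 48.2-fold lower, which does not hold for TH2 replicate 2 alone. Ly6c1 itself was -7.27 ± 1.18 log2 (adjusted p 2.01e-06). Ctsw, the cathepsin of cytotoxic cells, passed at 0.00583 and was lost without TFH replicate 2, or in a fit to the 7 libraries alone, at 0.0569 and 0.0695. Nkg7, a granule protein of cytotoxic cells, had no count in TFH libraries and 7.84, 0, 6.84 and 0 CPM in TH2 libraries (adjusted p 0.0448; lost without TFH replicate 1, 2 or 3, or TH2 replicate 1 or 3, at 0.0616 to 0.162). Tbx21, the TH1 factor T-bet, and Cxcr3, a chemokine receptor of TH1 cells, did not pass (9.22 ± 8.04 against 25.7 ± 9.1 CPM, then 3.67 ± 6.36 against 31.0 ± 17.6 CPM; adjusted p 0.718 and 0.337). Il2rb, the IL-2 and IL-15 receptor chain, and Il18r1, the IL-18 receptor, did not pass (373 ± 106 against 229 ± 99.5 CPM, then 8.39 ± 9.79 against 62.5 ± 31.3 CPM; adjusted p 0.243 and 0.308). In the list of naive, memory and quiescence genes 8 of 30 were lower and Tcf7 alone was higher (median -0.63). In the RNA-seq libraries described below this list went the other way, with 18 of 30 higher, 8 lower and a median of 0.42, against 30.8 and 30.9% of all genes tested there. Satb1, a chromatin organizer, stood at 120.4, 76.2 and 143 CPM against 1314, 852, 961 and 677 (-3.07 ± 0.30 log2, adjusted p 2.09e-15). Bach2, a repressor that holds back effector programs, had 2 counts in TFH libraries against 88.2, 52.1, 119 and 42.2 CPM (adjusted p 3.01e-05). Igfbp4, an IGF-binding protein of resting T cells, had no count in TFH libraries and 337, 230.3, 46.8 and 61.2 CPM in TH2 libraries, at least 181-fold lower (adjusted p 0.0269; lost without TFH replicate 1, 2 or 3, at 0.0932 to 0.105). Btg2, an antiproliferative gene, was -1.42 ± 0.44 log2 (adjusted p 0.0444; lost without TFH replicate 1 or 2, TH2 replicate 1, 2, 3 or 4, or either pair of TH2 replicates, or in a fit without robust settings, at 0.0511 to 0.199). Btg1, its relative, and Foxp1, a factor of quiescence, did not pass (513 ± 62.2 against 362 ± 81.4 CPM, then 368 ± 141 against 378 ± 51.1 CPM; adjusted p 0.338 and 1). In the survival and death list 3 of 27 were higher and 2 lower (11.1 and 7.41%, against 2.05 and 1.46% of all genes), with a median of -0.04. The lower ones were Bcl2 (-2.84 ± 0.43 log2) and Mcl1 (-1.44 ± 0.34). Pmaip1, the death promoter Noxa, was 1 of those higher, with 51.8, 46.7 and 15.3 CPM in TFH libraries and 4 counts in TH2 libraries. The adjusted p were 3.32e-07, 0.00291 and 0.00323, in that order. The Pmaip1 call was lost without TH2 replicates 1 and 2 together, or in a fit to the 7 libraries alone, at 0.0575 and 0.0676. Gimap4 and Gimap1, GTPases of lymphocyte survival, did not pass (356 ± 80.5 against 547 ± 76.1 CPM, then 249.5 ± 24.8 against 336 ± 36.4 CPM; adjusted p 0.252 and 0.48).

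Of activation and immediate early genes, 17 of 42 rose and 1 fell (40.5 and 2.38%, against 2.05 and 1.46% of all genes). The median was 1.4. Rgs2, a brake on G protein signalling, stood at 642, 557 and 739 CPM against 93.3, 42.2, 80.3 and 59.0 (3.23 ± 0.26 log2, adjusted p 5.59e-20). Its relative Rgs1 was the member that fell, at 128, 108 and 124 against 829, 662, 440.0 and 469.9 CPM (-2.33 ± 0.30 log2, adjusted p 1.45e-09). Nfkbia, the NF-kB inhibitor that NF-kB itself induces, was tight within groups, at 4976, 4682 and 4762 CPM against 1322, 1136, 1286 and 1148 (1.97 ± 0.17 log2, adjusted p 1.76e-18). Rel, the NF-kB subunit c-Rel, stood at 115, 186 and 93.4 CPM against 8.23, 8.18, 1.71 and 19.5 (adjusted p 9.41e-06). The AP-1 subunit genes Junb (1.71 ± 0.16 log2) and Jund (1.19 ± 0.21) and the phosphatase gene Dusp1 (3.20 ± 0.48) were higher as well (adjusted p 3.56e-16, 1.02e-05 and 0.000441). Nr4a3, an orphan receptor induced by the T cell receptor, had 8 counts in TH2 libraries against 179.5, 119 and 74.7 CPM in TFH libraries (adjusted p 4.25e-11). Rgs16, another G protein regulator, had no count in TH2 libraries and 69.9, 18.1 and 53.4 CPM in TFH libraries, at least 38.9-fold higher (adjusted p 0.00518). Zfp36l1, a protein that destabilizes AU-rich mRNAs (1.83 ± 0.37 log2), Ppp1r15a, a stress phosphatase subunit (1.21 ± 0.28), Ier5, an immediate early gene (1.47 ± 0.36), and Fosb, an AP-1 subunit (4.09 ± 0.95), also passed (adjusted p 0.000205, 0.0027, 0.00529 and 0.0281). The call of Ppp1r15a was lost without TFH replicate 3, or TH2 replicates 1 and 2 together, at 0.152 and 0.102. That of Ier5 was lost without TH2 replicates 3 and 4 together, at 0.123, and that of Fosb was lost without TFH replicate 1, 2 or 3, or TH2 replicate 2 or 3, or in a fit to the 7 libraries alone, at 0.0574 to 0.0847. Nfkbid, a nuclear partner of NF-kB (2.22 ± 0.60 log2), and Cd83, an activation marker at 34.4, 11.8 and 15.3 CPM against 0 (at least 16.9-fold higher), passed as well (adjusted p 0.0139 and 0.0119). The call of Nfkbid was lost without TH2 replicate 4, or TH2 replicates 3 and 4 together, or in a fit to the 7 libraries alone, at 0.0578 to 0.186, and that of Cd83 was lost without either pair of TH2 replicates, or in a fit to the 7 libraries alone, at 0.0857 to 0.122. Jun, Dusp2 and Nr4a1, an AP-1 subunit, a phosphatase and an orphan receptor, did not pass (786 ± 245 against 503 ± 195, 246 ± 32.5 against 285 ± 119 and 262 ± 105 against 20.5 ± 22.9 CPM, adjusted p 0.161, 0.899 and 0.0859). Nr4a1 passed with DESeq2, in edgeR without robust settings, and without TH2 replicate 2 or 4, or either pair of TH2 replicates, at 4.67e-20 to 0.0473. In the T cell receptor list 9 of 40 were higher (22.5% against 2.05% of all genes) and 0 lower (median 0.72). Among them were Ptprc, the phosphatase CD45 (1.27 ± 0.23 log2, adjusted p 2.71e-05), and Cd247, the zeta chain (1.33 ± 0.29, adjusted p 0.00115). Trbc2, a receptor beta constant gene that shares reads with Trbc1, was another (0.75 ± 0.16, adjusted p 0.00047). Trac, the alpha constant gene, and Cd3d, a CD3 chain, did not pass (1335 ± 94.8 against 1050 ± 371 CPM, then 981 ± 153 against 884 ± 227 CPM; adjusted p 0.432 and 0.883). Of inhibitory receptors 3 of 17 were higher and 1 lower (17.6 and 5.88%, against 2.05 and 1.46% of all genes). Cd160, one of them, stood at 114, 88.0 and 240.2 CPM against 2 counts (adjusted p 8.85e-17). Laptm5, a lysosomal regulator of the T cell receptor, and Btla, an inhibitory receptor, did not pass (2330 ± 180.1 against 2097 ± 252 CPM, then 158 ± 2.17 against 11.5 ± 18.3 CPM; adjusted p 0.818 and 0.0981). Btla passed with DESeq2, in edgeR without robust settings, with no filter on low counts, and without TH2 replicate 2, or either pair of TH2 replicates, at 9.27e-12 to 0.0279.

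Cytokine signalling genes were split, with 3 of 39 higher and 4 lower (7.69 and 10.3%, against 2.05 and 1.46% of all genes). The median was 0.13. Ifngr1, the ligand-binding chain of the interferon-gamma receptor, stood at 3.13, 1.34 and 8.02 CPM in TFH libraries and 231, 300.1, 109 and 145 in TH2 libraries. The highest TFH library held 8.02 CPM and the lowest TH2 library 108.7 (-5.52 ± 0.73 log2, adjusted p 1.74e-08). Il2rg, the shared gamma chain, did not pass (836, 778 and 859.5 against 967, 1016, 923 and 919.8 CPM, adjusted p 0.74). Socs3, a feedback inhibitor of STAT3 signalling, was 1.61 ± 0.31 log2 higher (adjusted p 0.000116). Il2ra, the IL-2 receptor chain CD25, had no count in TFH libraries and 32.2, 23.9, 27.7 and 60.1 CPM in TH2 libraries, at least 38.5-fold lower (adjusted p 0.0235; lost without TFH replicate 1, 2 or 3, TH2 replicate 4, or TH2 replicates 3 and 4 together, at 0.0502 to 0.111). Il17ra, an IL-17 receptor chain, was -0.98 ± 0.28 log2 (adjusted p 0.0226; lost without TFH replicate 1, 2 or 3, TH2 replicate 4, or either pair of TH2 replicates, at 0.07 to 0.117). Pim1, a kinase induced by cytokines, did not pass (1797 ± 183 against 1328 ± 189 CPM, adjusted p 0.3).

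Genes of the interferon response were higher in TFH cells in 16 of 67 members and lower in 1 (23.9% against 2.05%, median 1.26). Irf7, an amplifying transcription factor, was 2.72 ± 0.65 log2 higher (adjusted p 0.00324; lost without TH2 replicates 3 and 4 together, at 0.15). Ifit3, an antiviral effector, stood at 133, 119 and 72.7 CPM against 0.392, 4.43, 0 and 0, and its near-identical copy Ifit3b, which shares reads with it, at 191, 38.6 and 30.3 CPM against 1 count (adjusted p 0.000313 and 0.000148). Oas1g, an antiviral synthetase with close paralogs, stood at 129, 31.6 and 153 CPM against 0, at least 86.2-fold higher (adjusted p 1.01e-07). Isg20 (2.45 ± 0.35 log2) and Zbp1 (1.90 ± 0.41), an exonuclease and a nucleic acid sensor, and Ifi27l2a (2.54 ± 0.49), an interferon-induced protein, also passed (adjusted p 4.63e-08, 0.000887 and 0.00794; Ifi27l2a lost in a fit to the 7 libraries alone, at 0.0908). Phf11b (3.24 ± 0.66 log2) and Ifi203 (1.26 ± 0.33) passed with adjusted p 0.00132 and 0.0107. The call of Phf11b was lost in a fit to the 7 libraries alone, at 0.0609, and that of Ifi203 was lost without TH2 replicates 1 and 2 together, at 0.129. Ly6e (0.86 ± 0.20 log2), Ifih1, the RNA sensor MDA5, with 1 count in TH2 libraries against 27.8, 23.5 and 45.1 CPM, and Ifit1 (3.77 ± 1.10 log2) passed too (adjusted p 0.00221, 0.00463 and 0.0287). Their calls were lost in places: Ly6e was lost without TFH replicate 3, or TH2 replicates 3 and 4 together, at 0.0542 and 0.082. Ifih1 was lost without TH2 replicates 3 and 4 together, at 0.0788, and Ifit1 was lost without TFH replicate 1 or 3, TH2 replicate 1, 2 or 4, or TH2 replicates 1 and 2 together, or in a fit to the 7 libraries alone, at 0.0502 to 0.23. Trim30d, of a family of close paralogs, stood at 64.7, 51.0 and 57.6 CPM against 4.71, 0, 0.342 and 0.541, and Slfn5, a Schlafen family gene, at 266, 161 and 179 CPM against 50.2, 65.4, 8.89 and 28.7 (adjusted p 0.03 and 0.0405). The call of Trim30d was lost without TFH replicate 1, 2 or 3, TH2 replicate 2, 3 or 4, or TH2 replicates 3 and 4 together, at 0.0629 to 0.217. That of Slfn5 was lost without TFH replicate 1, 2 or 3, or TH2 replicate 1 or 4, or with RLE size factors, at 0.063 to 0.161. Stat2, an interferon signal transducer, did not pass (37.7 ± 21.7 against 34.5 ± 23.8 CPM, adjusted p 1). Igtp, an interferon-gamma-induced GTPase, was the member that fell, -1.75 ± 0.53 log2 (adjusted p 0.0356; lost without TFH replicate 1 or 2, TH2 replicate 2 or 3, or either pair of TH2 replicates, or in a fit to the 7 libraries alone, at 0.0539 to 0.308). Ly6a and Irf1, a surface protein and a transcription factor, did not pass (635 ± 200.5 against 978 ± 259 CPM, then 567 ± 138 against 572 ± 25.8 CPM; adjusted p 0.168 and 1). Of class I presentation genes 2 of 18 were higher and 0 lower, and H2-K1 and B2m, the class I heavy and light chains, did not pass (3576 ± 267 against 2503 ± 181 CPM, then 2775 ± 358 against 2290 ± 280.4 CPM; adjusted p 0.101 and 0.433).

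The promoters of the interferon and activation lists were read for known response elements. Windows run from 250 bases before to 50 after the start site in RefSeq (GRCm38.p6), and 49 interferon and 32 activation genes had an entry. The core of the interferon-stimulated response element, 2 GAAA runs with any 2 bases between them on either strand, was in 28 of the 49 interferon promoters (57.1%) and in 3.44% of 32851 promoters of all genes. It was in 9 of the 11 with an entry that were higher in TFH cells, and these included the 5 shown here, chosen after their values were seen. Capitals mark every match in the window, overlapping ones joined and some read on the other strand, and each sequence is given on its gene's strand, up to the start site at most.
Ifit3, plus strand, chr19:34583347-34583416: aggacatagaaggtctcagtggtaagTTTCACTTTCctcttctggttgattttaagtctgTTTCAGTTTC
Ifit3b, plus strand, chr19:34607743-34607812: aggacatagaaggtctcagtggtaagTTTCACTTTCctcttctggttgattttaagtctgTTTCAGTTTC
Oas1g, minus strand, chr5:120887614-120887657: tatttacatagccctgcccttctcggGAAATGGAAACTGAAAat
Phf11b, minus strand, chr14:59341345-59341406: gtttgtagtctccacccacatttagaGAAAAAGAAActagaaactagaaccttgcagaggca
Ifi203, minus strand, chr1:173942493-173942553: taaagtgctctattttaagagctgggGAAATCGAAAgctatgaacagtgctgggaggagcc

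Of the other letters searched on both strands, TGACGTCA, the cAMP response element, was in 3 of 16 activation promoters that were higher and in 1.79% of all promoters, and a strict NF-kB site, marked in Nfkbia below, in that gene's promoter alone among the 16 and in 0.0883% of all. Those of Dusp1 and Nfkbia are shown for these letters.
Nfkbia, minus strand, chr12:55492648-55492702: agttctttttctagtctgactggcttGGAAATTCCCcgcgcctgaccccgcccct
Dusp1, minus strand, chr17:26508582-26508641: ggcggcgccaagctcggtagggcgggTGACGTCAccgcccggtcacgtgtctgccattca
A looser NF-kB pattern that includes that site, GGGA and CC with any 4 bases between them, was in 7 of the 16 and 20.7% of all. TGANTCA (AP-1) was in 1 of the 16 and 7.81% of all, TTCNNNGAA (STAT) in 2 and 8.30%, and a serum response element and GCGTGGGCG, of the early growth response factors, in 0, against 0.0639 and 0.612% of all. A match describes the letters and does not show that a factor binds.

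Ribosomal protein transcripts were a smaller part of TFH than of TH2 libraries. They took 10.35, 8.52 and 7.86% of counts in TFH libraries and 15.01, 15.52, 14.76 and 15.43% in TH2 libraries. Every TFH library was below every TH2 library, a difference of -6.27 percentage points (exact permutation test over libraries, 2-sided, p = 0.0571, the smallest that 3 against 4 allows, or 0.0286 when splits of as large an absolute difference are counted; also 0.0571 after adjustment over the 3 gene classes compared). Libraries of the CXCR5lo and CXCR5int TFH gates, which are not part of this test, held 9.41 to 10.13%. By gene, 36 of 79 tested passed, all lower (45.6% against 1.46%, median -0.74), 18 of 31 in the small subunit and 18 of 48 in the large subunit. Rps3 stood at 1691, 1425 and 1341 CPM against 3399, 3332, 3385 and 4126 (-1.26 ± 0.19 log2, adjusted p 1.67e-07). Rps12 stood at 566, 395 and 360.0 CPM against 1343, 1214, 1289 and 1307 (-1.55 ± 0.25 log2, adjusted p 9.72e-07). Rps19 and Rpl36a were -1.15 and -1.17 log2 (adjusted p 6.7e-06 and 7.48e-06). Rpl21 had a ratio above 0 and did not pass (93.9, 107 and 91.4 against 63.5, 25.6, 39.3 and 27.1 CPM, adjusted p 0.232). Reads of ribosomal protein genes can be shared with their many processed pseudogenes. Of the 210 genes lower in TFH cells, 43 are annotated as processed pseudogenes of any parent gene, and of the 295 higher, 0 are. Which of the 43 derive from ribosomal protein genes was not checked. The share of processed pseudogenes among all genes tested was not counted either, so the 43 and 0 are not read as a result. Translation factors took 1.4 ± 0.01% of counts in TFH libraries (SD, n = 3) and 1.85 ± 0.16% in TH2 libraries (SD, n = 4, exact permutation p = 0.0571). The median log2 ratio over the 37 tested was -0.05, with 15 ratios above 0 and 22 below. By gene, 4 of the 37 passed, all lower (10.8% against 1.46% of all genes), and 1 kept its call with each library left out. Among them Rack1, a ribosome-bound scaffold (-1.03 ± 0.22 log2), and Eef2, the elongation factor that moves the ribosome (-0.89 ± 0.21), were lower (adjusted p 0.000536 and 0.0105; Eef2 lost without TFH replicate 2, at 0.0523). Eef1b2, another elongation factor subunit, was -0.95 ± 0.24 log2 (adjusted p 0.00619; lost without TFH replicate 1, or TH2 replicates 3 and 4 together, at 0.122 and 0.0512), and Fau, a ribosomal fusion protein, -0.65 ± 0.20 log2 (adjusted p 0.0353; lost without TFH replicate 1, 2 or 3, TH2 replicate 1, 2 or 4, or either pair of TH2 replicates, at 0.057 to 0.204). Pabpc1, the poly(A)-binding protein, and Tpt1, a translationally controlled protein, did not pass (1309 ± 322 against 1292 ± 93.0 CPM, then 719.9 ± 109.5 against 918 ± 66.5 CPM; adjusted p 1 and 0.463). Gas5, a host of small nucleolar RNAs, stood at 1195, 947 and 841 CPM against 2434, 2136, 2314 and 2017 (-1.16 ± 0.21 log2, adjusted p 2.92e-05). The mitochondrially encoded share was higher in TFH libraries, 9.11 ± 1.06% against 7.04 ± 1.15% (SD, n = 3 and 4; exact permutation p = 0.0571). Libraries of the CXCR5lo and CXCR5int gates held 7.01 to 9.78%, a range that reaches into both groups. By gene, 1 of 26 was higher and 1 lower (median 0.03), mt-Rnr2, the large mitochondrial ribosomal RNA (0.61 ± 0.13 log2), and mt-Te, a transfer RNA gene (-1.47 ± 0.31; adjusted p 0.00323 and 0.000635). The edgeR call of mt-Te was lost without TH2 replicates 3 and 4 together, at an adjusted p of 0.116. The RNA-seq libraries compared below list every mitochondrially encoded gene at 0 and give no second value. Without ribosomal protein genes in the scaling, 286 genes were higher and 215 lower.

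**Figure D3:**
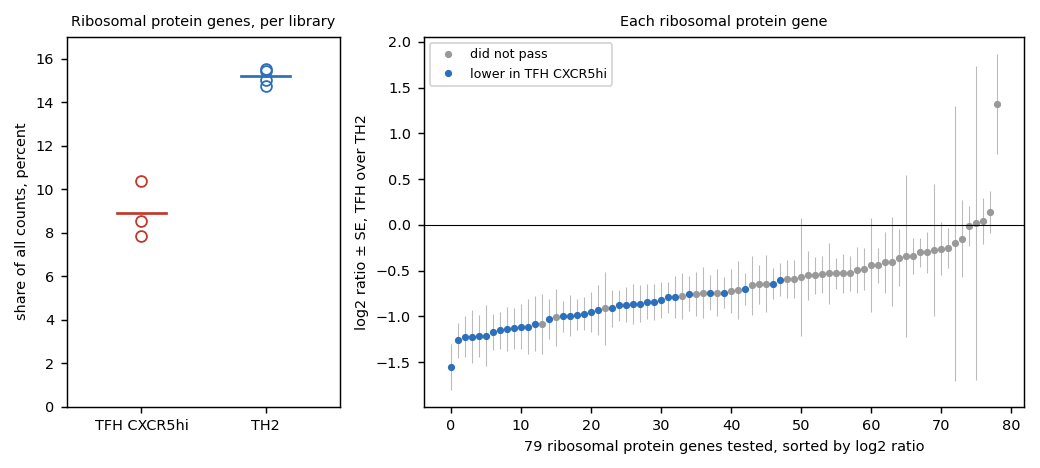
The left panel gives the share of counts of ribosomal protein genes in each library (circles; bars, group means), 7.86 to 10.35% in TFH and 14.76 to 15.52% in TH2 libraries. The right panel gives each of 79 genes as log2 ratio of TFH CXCR5hi over TH2 ± SE, with the 36 that passed in blue; 75 of the 79 lie below 0.

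In the chaperone list 5 of 29 were higher (17.2% against 2.05% of all genes) and 0 lower (median 0.72, or 0.59 with empty genes at their bound). In RNA-seq 11 of the 29 were higher and 14 lower, with a median of -0.12, against 30.8 and 30.9% of all genes tested there. Hspa5, the chaperone BiP, stood at 1333, 1638 and 2190 CPM against 446, 302, 366 and 368 (2.21 ± 0.21 log2, adjusted p 2.09e-15). Atf4, the transcription factor of the integrated stress response, stood at 409, 402 and 599 CPM against 138, 217, 186 and 69.3 (1.62 ± 0.30 log2, adjusted p 6.15e-05). Calr, the lectin chaperone calreticulin, was 1.24 ± 0.29 log2 (adjusted p 0.00346; lost without TFH replicate 3, at 0.212), and Hsp90ab1, a cytosolic chaperone, 0.79 ± 0.20 log2 (adjusted p 0.00583; lost without TFH replicate 3, TH2 replicate 3, or TH2 replicates 3 and 4 together, or in a fit to the 7 libraries alone, at 0.0776 to 0.157). Hspa8 and Pdia3, a cytosolic chaperone and a disulfide isomerase, did not pass (249 ± 30.5 against 210.1 ± 88.0 CPM, then 219 ± 26.7 against 133 ± 33.7 CPM; adjusted p 0.875 and 0.327). In the glycolysis and hypoxia list 3 of 30 were lower (10.0% against 1.46% of all genes). Among them was Slc2a3, the glucose transporter GLUT3, with 3.48, 1.01 and 0 CPM against 128, 68.5, 102 and 70.9 (adjusted p 0.015). Another was Pdk1, a kinase that limits pyruvate use (-3.38 ± 0.79 log2, adjusted p 0.00643). Both calls were lost without TFH replicate 2, at 0.14 for Slc2a3 and 0.0523 for Pdk1. Ddit4, an mTOR inhibitor, was -1.31 ± 0.40 log2 (adjusted p 0.0405; lost without TFH replicate 2 or 3, TH2 replicate 1 or 4, or either pair of TH2 replicates, or in a fit without robust settings, or with no filter on low counts, at 0.0529 to 0.305). Pkm and Ldha, glycolytic enzymes, did not pass (417 ± 11.7 against 352 ± 111 CPM, then 196 ± 81.9 against 253 ± 43.5 CPM; adjusted p 0.801 and 0.678). Of cell cycle genes 1 of 48 passed, as lower (2.08%, near the 1.46% of all genes). The median of the list was -0.92, with 36 ratios below 0 and 12 above. The member that passed was the inhibitor Cdkn1b (-0.87 ± 0.25 log2, adjusted p 0.0397). Its call was lost without TFH replicate 2 or 3, TH2 replicate 4, or TH2 replicates 3 and 4 together, at up to 0.449. It was also lost with RLE size factors, at 0.0654, or in a fit to the 7 libraries alone. Tuba1b, a tubulin, and Hmgb2, a chromatin protein of dividing cells, did not pass (635 ± 97.8 against 484 ± 319 CPM, then 476 ± 162 against 578 ± 384 CPM; adjusted p 0.806 and 0.935). In RNA-seq 46 of the 48 were lower in TFH cells, with a median of -4.03, against 30.9% of all genes tested there. Replication-dependent histone genes gave 0 calls of 46 by edgeR, with a median of -4.25 (-2.33 with empty genes at their bound). At an unadjusted p under 0.05 there were 11, and DESeq2 called 2. Of the 67 histone genes listed, 39 had no count in TFH libraries and 16 none in TH2 libraries. In RNA-seq all 41 histone genes measured were lower, with a median of -4.5, against 30.9% of all genes tested there.

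Outside the lists, genes are given by their p and level. Art2a-ps, annotated as a polymorphic pseudogene of an ADP-ribosyltransferase, stood at 290.2, 476 and 308 CPM in TFH libraries and had 6 counts over the 4 TH2 libraries (adjusted p 3.75e-35). H2-Q2, a class I molecule whose reads may be split among its relatives, stood at 246, 240.2 and 145 CPM against 3 counts (adjusted p 2.08e-18). Dtx1, the Notch pathway ubiquitin ligase Deltex, stood at 159, 71.9 and 112 CPM against 2 counts (adjusted p 9.25e-15). These 3 were near absent from TH2 libraries. Klf4, a factor of quiescence (4.32 ± 0.52 log2), Timp2, a metalloproteinase inhibitor (5.64 ± 0.63), Hpcal1, a calcium sensor (3.53 ± 0.44), and Adora2a, an adenosine receptor (2.85 ± 0.43), were higher too (adjusted p 6.11e-11, 2.08e-10, 2.16e-10 and 2.41e-07). Among other genes named for p or level, which are no list of actin genes, were the actin-binding Cotl1 (1.63 ± 0.22 log2), Tmsb10 (1.20 ± 0.22), Myh9 (1.04 ± 0.20) and Cfl1 (0.97 ± 0.23). Actb, the gene of beta-actin itself, was higher as well (0.79 ± 0.16). The adjusted p were 4.91e-09, 5.84e-05, 0.000134, 0.00296 and 0.000453, in that order. The call of Cfl1 was lost without TH2 replicates 3 and 4 together, at 0.106, and that of Actb was lost without TH2 replicates 3 and 4 together, at 0.0749. The lowest p among genes lower in TFH cells and outside the lists was that of Arl4c, a small GTPase of the cell cortex, with 73.8, 24.9 and 21.5 CPM in TFH libraries and 746, 779, 613 and 657 in TH2 libraries (-4.13 ± 0.37 log2, adjusted p 6.24e-17). Npc2, a lysosomal cholesterol carrier (-2.30 ± 0.28), Iqgap2, a scaffold (-3.49 ± 0.63), Emp3, a membrane protein (-3.08 ± 0.54), and Ppp3ca, the calcineurin catalytic subunit (-4.57 ± 0.80), were lower too (adjusted p 7.86e-11, 2.97e-05, 0.000451 and 9.53e-05). Ppp3ca stood at 7.65, 8.73 and 4.76 CPM against 182, 125, 198 and 166. No TFH library reached the lowest TH2 library. Outside the rule for names, Asb2, a ubiquitin ligase subunit, stood at 147, 206 and 207 CPM against 28.6, 11.6, 8.55 and 1.08 (3.89 ± 0.54 log2, adjusted p 3.64e-07), and Cd52, a surface glycoprotein, was 0.66 ± 0.19 log2 (adjusted p 0.0203; lost without TFH replicate 1 or 2, TH2 replicate 3 or 4, or TH2 replicates 3 and 4 together, at 0.0673 to 0.277). Scml4, a Polycomb-like protein, and Pik3r5, a regulatory subunit of a PI3 kinase, had 2 and 1 counts in TFH libraries against 70.6, 89.3, 103 and 42.2 and 74.5, 39.5, 106 and 117 CPM (adjusted p 1.44e-06 and 5.75e-06). Mir142hg, the host transcript of miR-142, was -5.61 ± 0.96 log2 (adjusted p 0.000144).

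**Figure D4:**
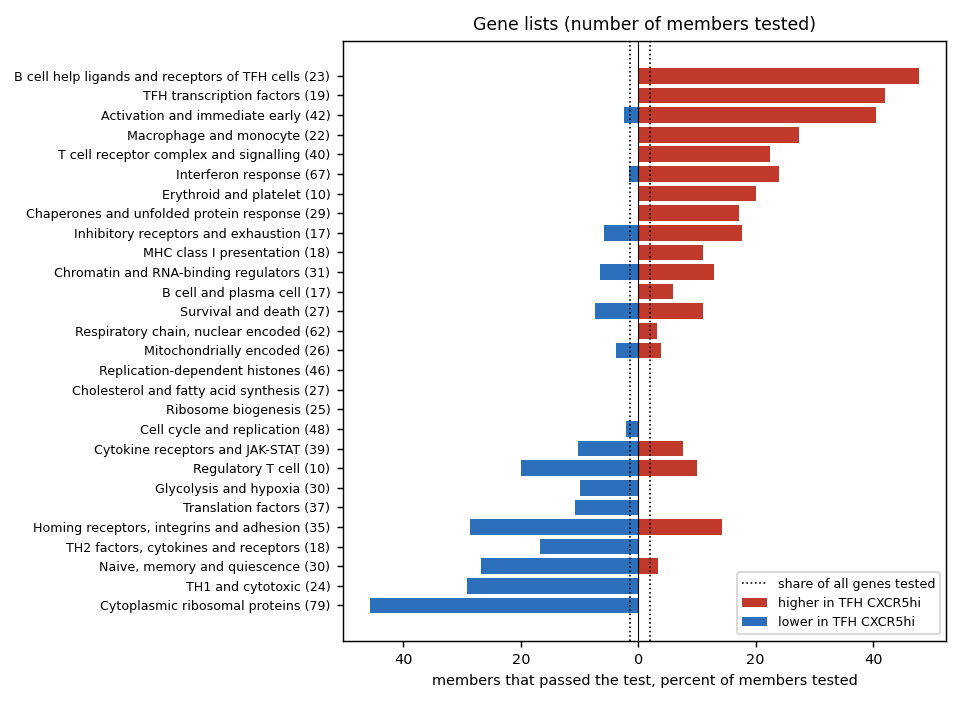
Bars give, for each list of at least 10 tested members (number in brackets), the percent of members higher (red, to the right) and lower (blue, to the left) in TFH CXCR5hi; dotted lines mark 2.05 and 1.46% of all genes tested. The B cell help list reaches 47.8% higher and the ribosomal protein list 45.6% lower.

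Of regulatory T cell genes 1 of 10 was higher and 2 were lower. Foxp3, the factor that defines these cells, had no count in the 7 libraries. Ikzf2, the factor Helios, stood at 208, 251 and 163 CPM against 0.392, 10.2, 20.5 and 0 (adjusted p 0.0169; lost without TH2 replicate 2, at 0.0535). Lrrc32, the TGF-beta anchor GARP, had no count in TFH libraries and 119.6, 43.3, 42.4 and 18.4 CPM in TH2 libraries, at least 59.9-fold lower (adjusted p 0.0212; lost without TFH replicate 1, 2 or 3, TH2 replicate 1, or TH2 replicates 1 and 2 together, at 0.0927 to 0.188). Of chromatin and RNA-binding regulators 4 of 31 were higher and 2 lower, among them Arid5b, a DNA-binding cofactor of demethylation, with 159, 188 and 146 CPM against 22.4, 53.1, 49.6 and 48.7 (1.92 ± 0.48 log2, adjusted p 0.00652; lost without TH2 replicates 1 and 2 together, at 0.115). Of nuclear-encoded respiratory chain genes 2 of 62 were higher (3.23%, near the 2.05% of all genes) and 0 lower. In RNA-seq 4 were higher and 41 lower, against 30.8 and 30.9% of all genes tested there. The 2 higher in QuantSeq were Atp5k, of ATP synthase (1.05 ± 0.25 log2), and Uqcr10, of complex III (1.23 ± 0.33). Their adjusted p in edgeR were 0.0037 and 0.0151. The call of Atp5k was lost without TFH replicate 2, or TH2 replicates 3 and 4 together, or in a fit to the 7 libraries alone, at 0.0502 to 0.201, and that of Uqcr10 was lost without TFH replicate 2, TH2 replicate 3 or 4, or TH2 replicates 3 and 4 together, or in a fit to the 7 libraries alone, at 0.0563 to 0.39.

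Several of these genes also separated the CXCR5hi gate from the CXCR5lo gate of the same OTII Tg genotype (n = 3), a contrast that shares the TFH CXCR5hi libraries with the one above. It called 20 genes, 0.139% of those tested. S1pr1 was at 271 ± 137 CPM (SD, n = 3) in CXCR5lo libraries, beside 239 ± 43.5 CPM (SD, n = 4) in TH2 libraries and 20.1 ± 6.91 CPM (SD, n = 3) in CXCR5hi libraries (-3.75 ± 0.47 log2 between the gates, adjusted p 6.93e-09). Ifngr1 stood at 49.3 ± 29.9 CPM in CXCR5lo libraries, between 4.16 ± 3.45 in CXCR5hi and 196 ± 86.2 in TH2 libraries (-3.53 ± 0.68 log2, adjusted p 0.00259). Id2 stood at 225 ± 71.4 CPM in CXCR5lo libraries (-1.27 ± 0.28 log2, adjusted p 0.0168), and Satb1 at 322 ± 17.4 (-1.51 ± 0.29 log2, adjusted p 0.0016), beside TH2 means of 1038 ± 178 and 951 ± 269. Rasgrp2, an exchange factor that activates integrins through Rap1, stood at 558 ± 188 CPM in CXCR5lo, 105 ± 23.3 in CXCR5hi and 481 ± 61.4 in TH2 libraries (adjusted p 1.38e-06). Tox2 was higher in the CXCR5hi gate than in CXCR5lo by 2.31 ± 0.46 log2, and Smco4, a small membrane protein, by 1.88 ± 0.29 (adjusted p 0.0279 and 1.39e-05).

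RNA-seq libraries of TFH CXCR5hi (wild type OTII Tg, n = 2) and TH2 (wild type IL-4BacTg, n = 2) cells were made with another kit. Their TH2 labels do not give OTII Tg, and those libraries held Il1rl1 and Il13, as given above. They are thus a related contrast and no repeat of the same one. The common biological coefficient of variation was 0.0879 there, against 1.257 in QuantSeq, and 61.7% of the genes tested passed there, 30.8% higher and 30.9% lower. Of the 17000 genes tested there, 186 had no count in these 4 libraries, because the filter ran over all 8 RNA-seq libraries; mt-Rnr2 and mt-Te are the QuantSeq calls among them. TFH RNA-seq libraries held Ddx3y and TH2 RNA-seq libraries Xist, so Y-linked counts, genotype and cell type cannot be told apart. Of the 295 genes higher in QuantSeq, 289 were measured, 241 were higher in RNA-seq and 19 lower. Of the 210 lower, 187 were measured, 140 were lower in RNA-seq and 10 higher. Over all 11923 genes tested by both methods, 58.4% had ratios of the same sign. Id2 (-3.77 log2), Vim (-5.29), Il4ra (-5.10), Satb1 (-2.67), Itgb3 (-7.80) and Arl4c (-3.22) were lower in RNA-seq (adjusted p 3.69e-11, 1.12e-11, 1.12e-11, 3.44e-10, 3.97e-12 and 9.29e-11). Ribosomal protein genes were lower in 66 of 78 and higher in 0. Several genes of this comparison did not pass there: S1pr1 (-0.16 log2, adjusted p 0.0938), Bach2 (-0.05, 0.658), Pmaip1 (0.05, 0.714), Isg20 (-0.03, 0.748) and Actb (-0.14, 0.249). Hspa5 was higher by 0.45 log2 in RNA-seq against 2.21 in QuantSeq. Klf6, a factor of early activation, was higher in QuantSeq (1.15 ± 0.23 log2, adjusted p 0.000186; lost without TH2 replicates 1 and 2 together, at 0.0595) and lower in RNA-seq (-0.20 log2, adjusted p 0.0492). The long noncoding RNAs of the nuclear speckle Malat1 (1.14 ± 0.22 log2 in QuantSeq, adjusted p 0.00579) and of the paraspeckle Neat1 (-2.13 ± 0.31 log2, adjusted p 1.12e-07) did not pass in RNA-seq (-0.13 and 0.12 log2).

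**Figure D5:**
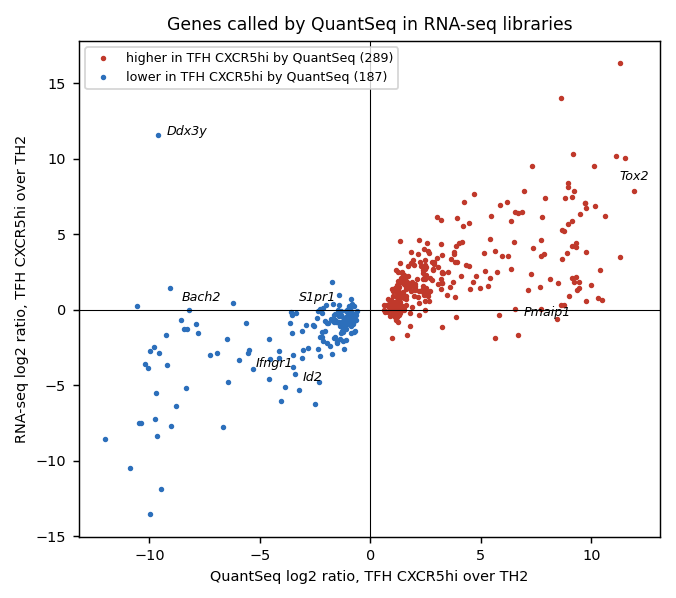
Each point is a gene called in QuantSeq and measured in RNA-seq (289 higher, red; 187 lower, blue), with the log2 ratio of TFH CXCR5hi over TH2 in QuantSeq (horizontal) and RNA-seq (vertical). Most points lie in the lower left and upper right; S1pr1 and Bach2 lie near 0 on the vertical axis and Ddx3y in the upper left.

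Summed transcripts of the macrophage, B cell and dendritic cell lists were higher in TFH libraries beside these results, and their part in them was not tested. Of the macrophage list, 6 of 22 members passed, all higher (27.3% against 2.05% of all genes). Its summed level was 295 to 561 CPM in TFH libraries and 87.9 to 167 CPM in TH2 libraries. C1qa, a complement gene of tissue macrophages, stood at 26.8, 76.2 and 48.6 CPM against 2 counts, and Csf1r, the macrophage growth factor receptor, at 31.3, 24.9 and 42.1 CPM against 2 counts (adjusted p 6.11e-11 and 1.07e-09; Csf1r lost in a fit to the 7 libraries alone, at 0.0515). C1qc, another complement gene, and Vcam1, an adhesion molecule of macrophages and stroma, passed at 1.51e-06 (lost in a fit to the 7 libraries alone, at 0.239) and 2.41e-05 (lost in a fit to the 7 libraries alone, at 0.111). Fcer1g, an adaptor of myeloid and natural killer cells, rested on TFH replicate 2 (0.348, 62.8 and 0 CPM, adjusted p 0.0384; lost without TFH replicate 2, TH2 replicate 1, 2, 3 or 4, or either pair of TH2 replicates, at 0.0789 to 0.742). Adgre1, a defining marker of macrophages, had 4 counts over the TFH libraries and Cd14 had none. Lyz2, the lysozyme of myeloid cells, was found in TFH replicate 2 alone (17.5 CPM). The B cell list summed to 279 to 315 CPM in TFH and 60.6 to 169 CPM in TH2 libraries, with Igkc, the antibody light chain, at 59.1, 22.2 and 42.8 CPM against 3 counts (adjusted p 5.83e-11), the 1 of 17 members that passed. Ms4a1, the B cell marker CD20, had no count in the 7 libraries, and Cd79a, a chain of the B cell receptor, had 1, in TH2 replicate 3. The dendritic cell list summed to 125 to 177 CPM in TFH and 24.9 to 96.1 CPM in TH2 libraries, and 0 of its 5 members tested passed. In the erythroid and platelet list 2 of 10 passed, both higher (20.0% against 2.05% of all genes). Of the 10 ratios 5 were below 0 and 3 above (median -0.06). The list summed to 101 to 171 CPM in TFH and 48.2 to 115 CPM in TH2 libraries, which overlap. Those that passed are the globin genes Hbb-bs, at 47.0, 54.4 and 66.6 CPM against 2 counts, and Hbb-bt, which shares reads with it, at 18.8, 3.69 and 23.1 CPM against 8 counts (adjusted p 1.2e-08 and 0.0186; Hbb-bt lost without TFH replicate 3, or TH2 replicates 3 and 4 together, or in a fit to the 7 libraries alone, at 0.058 to 0.439).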

How the data were processed

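QuantSeq libraries (3' end tags, Lexogen kit, 10 ng RNA) and RNA-seq libraries were deposited as count tables, whole-number counts of reads per gene (QuantSeq) or per transcript (RNA-seq). The submitters' processing notes list featureCounts 1.6.0, STAR 2.7.0c and Bowtie 0.12.2, with the builds GRCm38.p6, mm10 and mm9. The sources used here do not say which of these made which table. Groups came from the labels, which give no replicate numbers and no batch. Replicates were numbered in accession order, as names only.

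Genes were tested with edgeR 4.0.16 (R 4.3.3, limma 3.58.1): TMM scaling, a filter of 10 counts, a robust quasi-likelihood fit to all 22 QuantSeq libraries in 9 groups, Benjamini-Hochberg adjustment over all genes tested. The fit over all groups shares 1 estimate of spread. Levels are CPM over the library sizes of the fit after TMM scaling. Differences are log2 ratios, TFH minus TH2, ± SE of the fit. A gene with no count in a group is given as a bound from a floor of 3 counts per library. The bound sets the mean of the other group over the mean floor, so single libraries of that group can lie closer. Bounds and shares cover counting error only. For RNA-seq, the transcript of highest total count stood for its gene, and 14.66% of counts had no name. Of 55573 QuantSeq identifiers, 93 had no name (0.0062% of counts). Scripts were tested on simulated data.

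Shares of counts were compared with an exact 2-sided permutation test over libraries (scipy 1.17.1), which doubles the smaller tail. A count of splits with at least as large an absolute difference was computed first and gave 0.0286. The doubled p, whose smallest value exceeds 0.05 as the design states, is used.

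The comparison, members and gene lists were chosen with earlier results of these data known. Named genes were list members, called ones by smallest p and others by highest mean CPM, and outside the lists genes among the 20 smallest p or 10 highest levels in a direction, with groups that did not overlap and calls held without each library. Defining markers of the sorted and other cells were named as label checks, and Malat1, Neat1 and Klf6 as list members. Ccr7, Il7r, Asb2, Cd52, Slamf6, Tox, Cd3e, Nr4a1 and Rpl21 were chosen with their values in view, as were the promoter windows shown. The selection of genes named was revised with the stability of their calls known; genes first left out for weak calls are given as well. A few genes are not reported here. Alternatives were DESeq2 1.42.0, RLE size factors, no filter, no robust fit, the 7 libraries alone, scaling without ribosomal protein genes, and leaving out libraries. Figures were drawn with matplotlib 3.10.9.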

Additional observations from a re-analysis of the deposited data

Results flagged for a closer look

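In 7 genes 1 library stood apart from the other 3 of the TH2 group, by the gap to its neighbour over the range of the group. Il4 stood at 13.68 CPM in TH2 replicate 3 and at 0 in the others. Ifit3 stood at 4.429 CPM in TH2 replicate 2, with the next library at 0.3922. Btla stood at 38.84 CPM in TH2 replicate 2, with the next at 3.761. Rps3 stood at 4126 CPM in TH2 replicate 4, with the next at 3399, and the whole group remained above the TFH libraries. Hsp90ab1 stood at 883.5 CPM in TH2 replicate 3, below the next at 1552. Arid5b stood at 22.35 CPM in TH2 replicate 1, below the next at 48.72, and Trim30d at 4.706 CPM in TH2 replicate 1, with the next at 0.5413. Chance flags about 1 in 20 groups, and 172 groups were examined.

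For 17 named genes the difference from TH2 cells was not the same in the CXCR5hi and CXCR5lo gates, tested as the log2 difference of CXCR5hi minus CXCR5lo in the same edgeR fit. TH2 libraries cancel in that difference. It was negative for S1pr1 (-3.75), Anxa6 (-2.46), Rasgrp2 (-2.41), Arl4c (-2.34), Scml4 (-7.18), Satb1 (-1.51), Ifngr1 (-3.53), Pik3r5 (-7.45), Id2 (-1.27), Itgb7 (-1.40), Bach2 (-6.06), Nkg7 (-9.37) and Ahnak (-1.94). It was positive for Smco4 (1.88), Tox2 (2.31), Asb2 (2.7) and Cd52 (0.98).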

How the results depend on the processing

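Between TFH CXCR5hi and TH2, 295 genes were higher and 210 lower. DESeq2 called 472 and 491, which moved the share of higher calls from 58.4 to 49.0%. Leaving out each library gave 212 to 284 higher and 124 to 196 lower, with the fewest without TFH replicate 2. The remaining alternatives gave 207 to 344 higher and 174 to 234 lower. Of all 505 calls, 245 held with each library left out. Of the 149 called genes named in the text, which the naming rule picks in part for stability, 55 lost their call under at least 1 of 15 alternatives and none reversed. Of 55 named genes that did not pass, 19 passed under at least 1 alternative, 11 of them without TH2 replicates 1 and 2, 10 with DESeq2 and 8 without robust settings. Cxcr3, Gimap4, H2-K1, Il2rb, Jun, Ly6a, Trac, Tuba1b and Xist did so in 1 setting each. Between the CXCR5hi and CXCR5lo gates 20 genes passed, 83 with DESeq2, 33 without a filter, 7 with 6 libraries alone, and 13 to 29 with a library left out (13 without CXCR5hi replicate 1). The 381 calls shared in direction with RNA-seq were 361 to 389 with an RNA-seq library left out. The ribosomal share difference was -6.99 to -5.75 points, the mitochondrial 1.45 to 2.43 and that of translation factors -0.51 to -0.39 with a library left out.

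Ratios of genes that did not pass changed sign in 28 cases. Without TH2 replicates 1 and 2, Id3 was 1.68, Irf1 0.04, Il21r 0.20, S100a6 0.36, Dusp2 0.03 and Hmgb2 0.94. Without TH2 replicates 3 and 4, Foxp1 was 0.14, Trac -0.03, Tuba1b -0.24, Cd3d -0.12, Pkm -0.07 and Hspa8 -0.18. Pabpc1 was -0.02 with DESeq2, -0.02 with RLE size factors and -0.01 with the 7 libraries. With 1 library left out, log2 ratios ran from -5.08 to 2.76 for Il13, from -0.62 to 0.51 for Id3, from -0.40 to 0.15 for Foxp1, from -0.20 to 0.16 for Irf1, from -0.44 to 0.02 for Dusp2, from -0.59 to 0.11 for Hmgb2, from -0.19 to 0.17 for Pabpc1 and from -0.34 to 0.54 for Stat2. The cause was not tested. No paired analysis was possible because the labels carry no replicate numbers. Depth limits genes near 0: the floor of 3 counts per library sets each bound.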

Other observations

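Ribosome biogenesis genes (25 tested) and cholesterol and fatty acid synthesis genes (27 tested) gave 0 calls by edgeR. At an unadjusted p under 0.05 there were 1 and 3, and DESeq2 called 0 and 2.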
